A study of Rattus norvegicus with 3 samples.

Results

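The endothelial nuclei of the injured rat spinal cord numbered 167 of 5326 nuclei (3.136%). They were chosen by their counts of unique molecular identifiers (UMIs, each standing for 1 captured RNA molecule). A nucleus was kept when it held a UMI in at least 3 of the 8 endothelial genes Flt1, Mecom, Cyyr1, Adgrl4, Vwf, Tek, Pecam1 and Erg. It could hold a UMI in at most 1 of 7 genes of other lineages, namely Col1a1 and Col3a1 (fibroblasts), Itgam and Csf1r (myeloid cells), Mobp and St18 (oligodendrocytes) and Snap25 (neurons). The nuclei came from wild-type rats of the strain SDrat (Sprague Dawley) aged 17 weeks, and tissue of the lesion epicenter was taken on day 49 after the injury. There were 3 libraries, 1 per group. The untreated library came from injured cord with no implant and the scaffold library from injured cord that had received a scaffold. The HGF scaffold library came from injured cord whose scaffold gave off hepatocyte growth factor (HGF). Implants had been in the cord for 7 days. All 3 groups were injured, no uninjured cord was analysed here, and the number of animals behind each library is not in the labels.

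With 1 library per group there was no replicate and no test between groups. Every interval below is at 95% and covers counting error only, and every difference between libraries compares those libraries, not the treatments. Levels are UMIs of a gene summed over the endothelial nuclei of a library, scaled to CPM, the count out of 1000000 UMIs of the same nuclei. Fewer nuclei with a transcript and less transcript per nucleus give the same change in such a sum, so the number of nuclei with a UMI is given beside the levels. Ratios were read for genes that reached 20 UMIs over both libraries, and a gene is called higher at a ratio of at least 2 and lower at a ratio of at most 0.5.

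Endothelial cells line every blood vessel. In brain and spinal cord they form a barrier: tight junctions seal the gaps between them, and transporters in their membranes carry glucose, amino acids, hormones and iron into the tissue and pump foreign compounds out. This barrier programme depends on Wnt signalling to the nuclear factor LEF1, and factors of the ETS family (ERG, FLI1, ETS1) hold the endothelial identity. Injury to the cord breaks vessels and the barrier at the lesion, and new vessels then form. HGF acts through the receptor MET, which many endothelial cells carry.

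Endothelial nuclei were 88 of 2252 nuclei in the untreated library (3.908%, exact binomial interval 3.146 to 4.792), 48 of 2168 in the scaffold library (2.214%, 1.637 to 2.925) and 31 of 906 in the HGF scaffold library (3.422%, 2.336 to 4.822). The interval of the scaffold library did not overlap that of the untreated library, and both overlapped that of the HGF scaffold library. These shares move with the rule. Of the members, 37 held exactly 3 of the 8 markers, while 75 nuclei just outside held exactly 2, and 13 members held all 8. No excluded gene was seen in 64 members and 1 was seen in 103, while 117 nuclei with enough markers held exactly 2 excluded genes and were left out.

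The excluded genes removed most marker-bearing nuclei. In all, 642 nuclei held at least 3 endothelial markers and 475 of them were dropped for 2 or more excluded genes. By library these were 222 of 310 untreated, 199 of 247 scaffold and 54 of 85 HGF scaffold nuclei. The dropped nuclei were deep, with a median of 4131, 5478 and 3873.5 UMIs, against 1330, 1154 and 1285 UMIs in the members. The summed level of the 8 markers was 4366, 2898 and 4447 CPM in the dropped nuclei, 14270, 12621 and 10746 CPM in the members, and between 291 and 308 CPM in nuclei with fewer than 3 markers. The members were shallower than the dropped nuclei, and the shares above count nuclei that pass the rule rather than all endothelial cells of the tissue.

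The members' summed depth was 149123, 72816 and 44853 UMIs, so the HGF scaffold library carries the widest intervals. A count of 0 allows up to 3 UMIs, which is 20.1 CPM untreated, 41.2 CPM scaffold and 66.9 CPM HGF scaffold. Triplets of values below are in this order of libraries. One nucleus supplied up to 10.45% of a library's endothelial UMIs, and the untreated and scaffold libraries shared 3 cell barcodes and the scaffold and HGF scaffold libraries 1, none of them endothelial. Single nuclei decided some values, and the main ones are named with the results.

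The label was checked on 20 endothelial genes that the rule did not use, of which 19 were in the files. In all 3 libraries 17 of them were higher in the endothelial nuclei than in the other nuclei, and 16 were at least 2-fold higher in each library, against 15.6% of the 507 genes with at least 100 endothelial UMIs, a depth that 6 of the 19 reached. Cldn5, the main tight junction claudin of barrier vessels, was higher by 8.65-fold, 23.3-fold and 5.08-fold. Emcn, a sialomucin of capillaries and veins, was higher by 10.3-fold, 9.27-fold and 11.6-fold, and Egfl7, a secreted endothelial factor, by 8.49-fold, 9.34-fold and 13.5-fold. Cdh5, the adherens junction cadherin of vessels, was sparse at 48 UMIs and still higher by 4.96-fold, 4.002-fold and 5.49-fold. Esam, an adhesion molecule of tight junctions, fell short of 2-fold in the HGF scaffold library alone (1.74-fold), and Robo4 and Sox18 had 0 UMIs. The genes are not independent of the rule, because nuclei were chosen on co-expressed genes, so these ratios describe the set and are not a test of it.

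**Figure D1:**
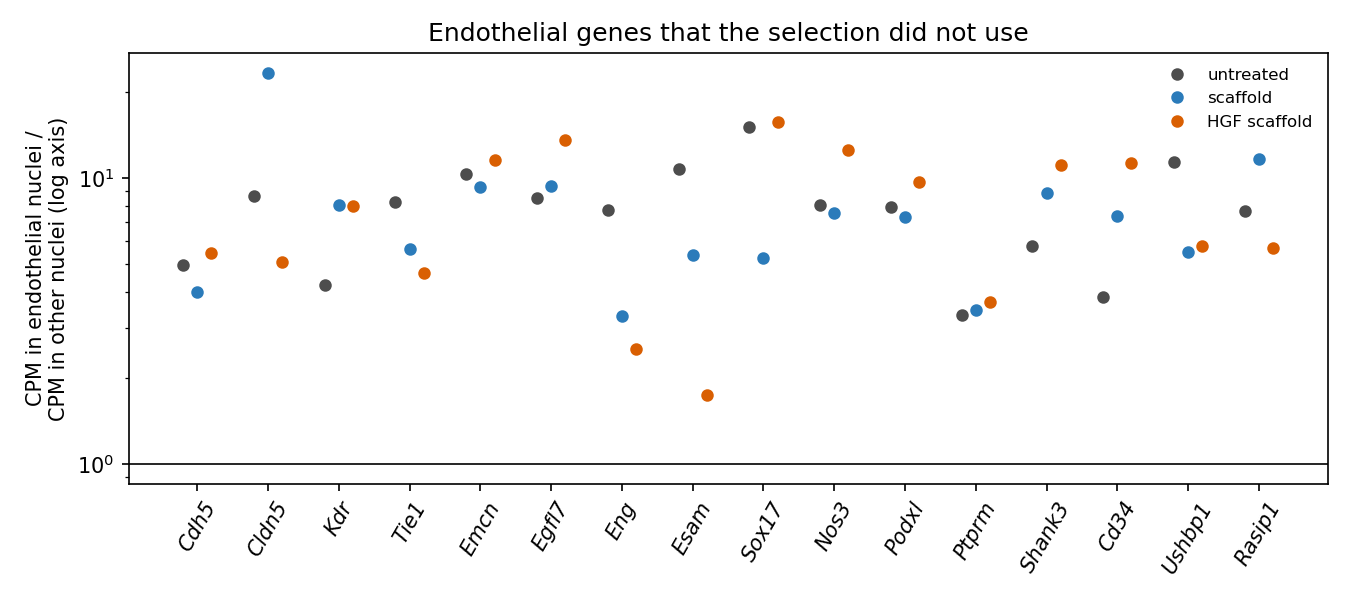
Ratio of the CPM in endothelial nuclei to the CPM in all other nuclei of the same library (log axis), for the endothelial genes outside the selection rule with at least 20 UMIs; each point is 1 library and the line marks 1. All points lie above the line, the lowest being Esam in the HGF scaffold library at 1.74.

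Markers of other lineages were present in the endothelial nuclei. The fibroblast, myeloid and oligodendrocyte lists hold genes that the rule excludes, so their lower level there is partly set by the selection. Col1a1 and Col3a1 stood at 1733 and 1669 CPM in the other nuclei of the untreated library. Fibroblast markers summed to 1925, 1058 and 1293 CPM in the endothelial nuclei, against 6780, 3226 and 5173 CPM in the other nuclei. Of the 12 fibroblast markers none was at 0. Myeloid markers summed to 791, 2925 and 2698 CPM in the endothelial nuclei, against 1252, 5136 and 6484 CPM in the other nuclei, and 11, 15 and 13 of the 16 had a UMI. Neutrophil markers, at 26.8, 549 and 156 CPM, were mostly at 0, with Cxcr2, Mmp8, Retnlg, Camp and Ngp absent in all 3 libraries. In the other nuclei they stood at 30.8, 413 and 557 CPM. Pericyte and smooth muscle markers stood at 637, 343 and 245 CPM, against 416, 285 and 347 CPM in the other nuclei, and Cnn1, Higd1b and Des were at 0 in every library. Lymphatic endothelial markers were at 282, 426 and 66.9 CPM, against 383, 238 and 181 CPM in the other nuclei, with Lyve1 at 0 throughout. Erythroid markers were at 188, 687 and 201 CPM, against 227, 183 and 257 CPM. In the scaffold library the pericyte, lymphatic, neutrophil and erythroid lists were thus higher in the endothelial nuclei than in the others. The myeloid level in the endothelial nuclei of both implant libraries was thus more than 3 times that of the untreated library, and it was higher in the other nuclei of those libraries too.

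**Figure D2:**
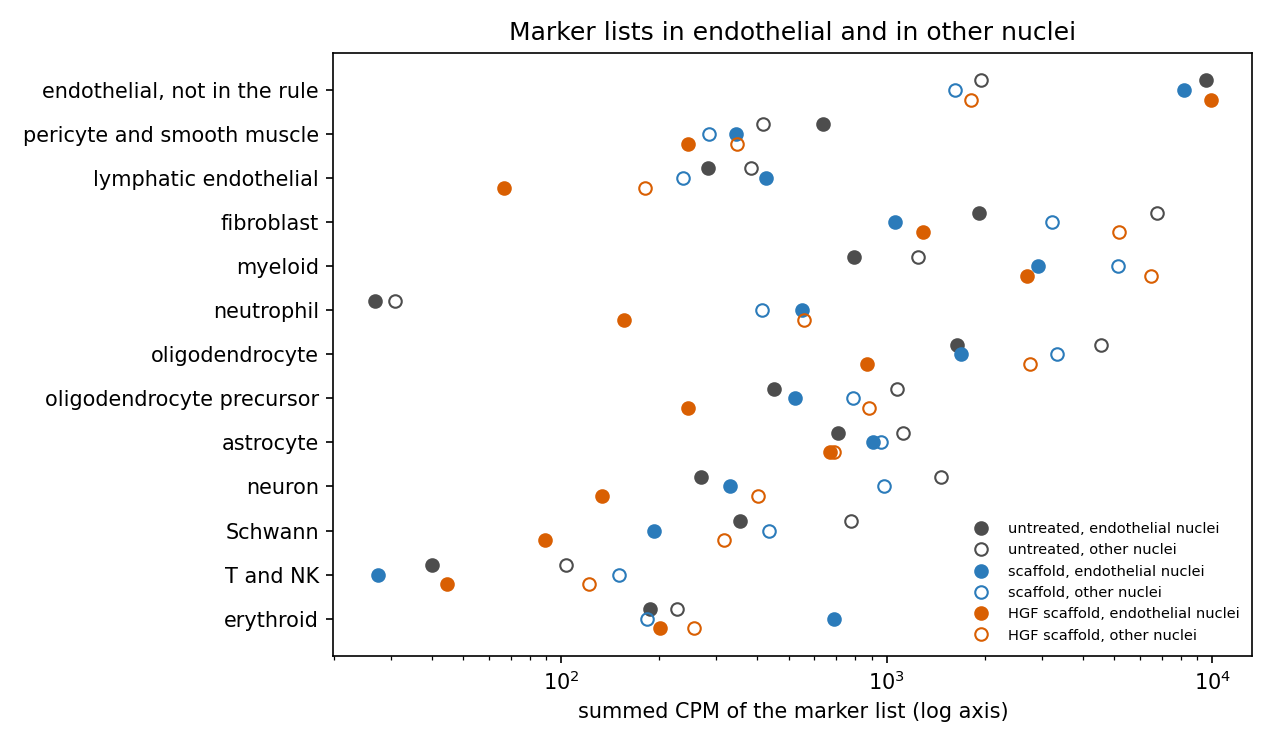
Summed CPM (log axis) of marker lists in endothelial nuclei (filled) and in all other nuclei (open) of the 3 libraries. Endothelial genes outside the rule stand between 8171 and 9899 CPM in endothelial nuclei and at most 1952 CPM elsewhere. Fibroblast, myeloid and oligodendrocyte lists are lower in endothelial nuclei than in the others of the same library. These lists hold genes that the rule excludes, so this is partly set by the selection.

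The genes that led the endothelial nuclei over the other nuclei were barrier and vessel genes. Ranked by the lowest of the 3 library ratios, among genes with at least 100 endothelial UMIs, the first were Slco1c1, a thyroid hormone transporter, and Slco1a2, an organic anion transporter listed in the current RefSeq table as Slco1a4. Slco1c1 was higher than in other nuclei by 16.3-fold, 62.3-fold and 73.1-fold, and Slco1a2 by 12.1-fold, 29.4-fold and 23.3-fold. The HGF scaffold values rest on 1 of 31 nuclei for Slco1c1 and 2 of 31 for Slco1a2. Adgrf5, an adhesion receptor of capillaries, followed at 11.9-fold, 19.6-fold and 15.2-fold, then Emcn, Egfl7, Podxl, Dysf, Palmd, Shank3 and Adamts9. The drug efflux pump Abcb1a, the Wnt factor Lef1 and the ETS factor Ets1 were among the 20 leading genes. As with the check above, this ranking describes nuclei that were picked by co-expressed genes.

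The promoters of these leading genes were read from the RefSeq promoter table (rat build GRCr8), which held 16 of the 20. The 250 bases before the start of each gene were searched on both strands for AGGAAG, the core of ETS sites, and TCAAAG, the core of TCF/LEF sites. The stretches below are the last 150 bases before the start, 5′ to 3′ on the gene's own strand, of 3 leading genes that carry the ETS core, shown because the genes were higher in endothelial than in other nuclei in every library, although Slco1a2 was seen in only 2 of the 31 HGF scaffold nuclei. Capitals mark AGGAAG or its reverse complement.
Slco1a2 (chr4:176495847-176495996, minus strand): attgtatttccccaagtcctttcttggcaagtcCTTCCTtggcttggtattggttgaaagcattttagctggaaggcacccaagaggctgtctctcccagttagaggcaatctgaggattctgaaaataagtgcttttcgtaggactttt
Egfl7 (chr3:29805481-29805630, plus strand): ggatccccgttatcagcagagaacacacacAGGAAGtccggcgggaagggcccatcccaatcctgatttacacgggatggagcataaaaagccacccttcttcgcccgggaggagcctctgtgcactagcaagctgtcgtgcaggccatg
Shank3 (chr7:122448173-122448322, plus strand): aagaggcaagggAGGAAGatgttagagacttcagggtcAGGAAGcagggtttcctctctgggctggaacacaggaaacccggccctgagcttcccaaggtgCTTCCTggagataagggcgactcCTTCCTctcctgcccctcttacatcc
The ETS core was in 6 of 16 leading promoters (37.5%), against 29.37% of all 27457 promoters in the table. The TCF/LEF core was in 0 of 16, against 13.77% of all promoters, and in 1 of 17 promoters of the barrier transporters (5.882%), of which 4 held the ETS core (23.53%). Such short words are common, and a match describes letters and not a bound site. The 4 copies in Shank3 do not overlap.

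Barrier transporters were higher in the scaffold library than in the untreated library and lower again in the HGF scaffold library. Of 21 listed transporters 19 were in the files. Between scaffold and untreated 13 could be read, 5 were at least 2-fold higher and 0 were at least 2-fold lower, while 7.33% of all 2727 genes read were higher and 8.95% lower by that measure. The list's median log2 ratio was 0.79, against -0.03 over all genes read, and 11 of the 13 were above 1. The counting interval lay above 1 for 7 of the 13 and below 1 for 0, against 7.19% and 7.92% of all genes read. Between HGF scaffold and scaffold 11 could be read, all 11 were below 1 and 2 were at least 2-fold lower, against 9.7% of all 1536 genes read lower and 6.58% higher. The median log2 ratio was -0.89, against 0.02 over all genes. The interval lay below 1 for 3 of the 11 and above 1 for 0, against 7.23% and 7.16% of all genes read. The list summed to 4205 CPM in the untreated library (Poisson interval 3882 to 4547), 6606 CPM in the scaffold library (6029 to 7223) and 3902 CPM in the HGF scaffold library (3345 to 4525). In the other nuclei it summed to 885.6, 1302 and 1262.5 CPM. The summed level was thus higher in scaffold than in untreated in the other nuclei too.

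Slc7a5, which carries large neutral amino acids, gave 8, 21 and 7 UMIs, or 53.6, 288 and 156 CPM. It was 5.38-fold higher in scaffold than in untreated (interval 2.29 to 14.0). The cationic amino acid transporter Slc7a1 stood at 355, 728 and 156 CPM from 53, 53 and 7 UMIs. Its scaffold level was 2.05 times the untreated one (1.37 to 3.06), and its HGF scaffold level was 0.21 of the scaffold one (0.0822 to 0.473). The untreated and HGF scaffold libraries were both below the scaffold library for both amino acid carriers. For Slc7a5, however, the interval of HGF scaffold over scaffold included 1.

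Slco1c1 stood at 295, 632 and 312 CPM, with a UMI in 17, 13 and 1 nuclei. Its ratio was 2.14 for scaffold over untreated (1.39 to 3.31) and 0.49 for HGF scaffold over scaffold (0.251 to 0.915). Slco1a2 stood at 557, 961 and 513 CPM, with a UMI in 30, 16 and 2 nuclei, and its ratios were 1.73 (1.24 to 2.40) and 0.53 (0.318 to 0.865). In the HGF scaffold library all 14 UMIs of Slco1c1 and 21 of the 23 of Slco1a2 lay in 1 nucleus. Among the other nuclei the scaffold library had less of both genes than the untreated library, at ratios of 0.56 and 0.71. Thinned to 500 UMIs per nucleus, 20.9%, 23.3% and 5.94% of endothelial nuclei held a UMI of Slco1a2, against 2.51%, 1.66% and 0.99% of the other nuclei.

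Tfrc, the transferrin receptor, stood at 221, 549 and 312 CPM, 2.48-fold higher in scaffold than in untreated (1.53 to 4.06), but it was 7.83-fold higher in the other nuclei too. The zinc transporter Slc39a10 stood at 181, 426 and 223 CPM and was 2.35-fold higher in scaffold (1.36 to 4.10), against 0.92 in the other nuclei. Abcb1a stood at 409, 769 and 580 CPM, with a scaffold over untreated ratio of 1.88 (1.28 to 2.75). In the HGF scaffold library 18 of its 26 UMIs lay in 1 nucleus, and the log2 ratio of HGF scaffold over scaffold moved from -0.41 to -1.92 without the richest nuclei. Abcc4, another efflux pump, ran from 690.7 to 481 to 289.8 CPM, from 103, 35 and 13 UMIs, and its intervals included 1 (scaffold over untreated 0.70, 0.460 to 1.03). The glucose transporter Slc2a1 stood at 295, 426 and 223 CPM and the efflux pump Abcg2 at 168, 275 and 201 CPM, and the intervals of their ratios included 1 in both comparisons. The insulin receptor Insr was level, at 664, 728 and 691 CPM. Slc22a8, Slc38a5, Slc19a3 and the lipid carrier Mfsd2a gave at most 8 UMIs in any library and were too sparse to compare.

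**Figure D3:**
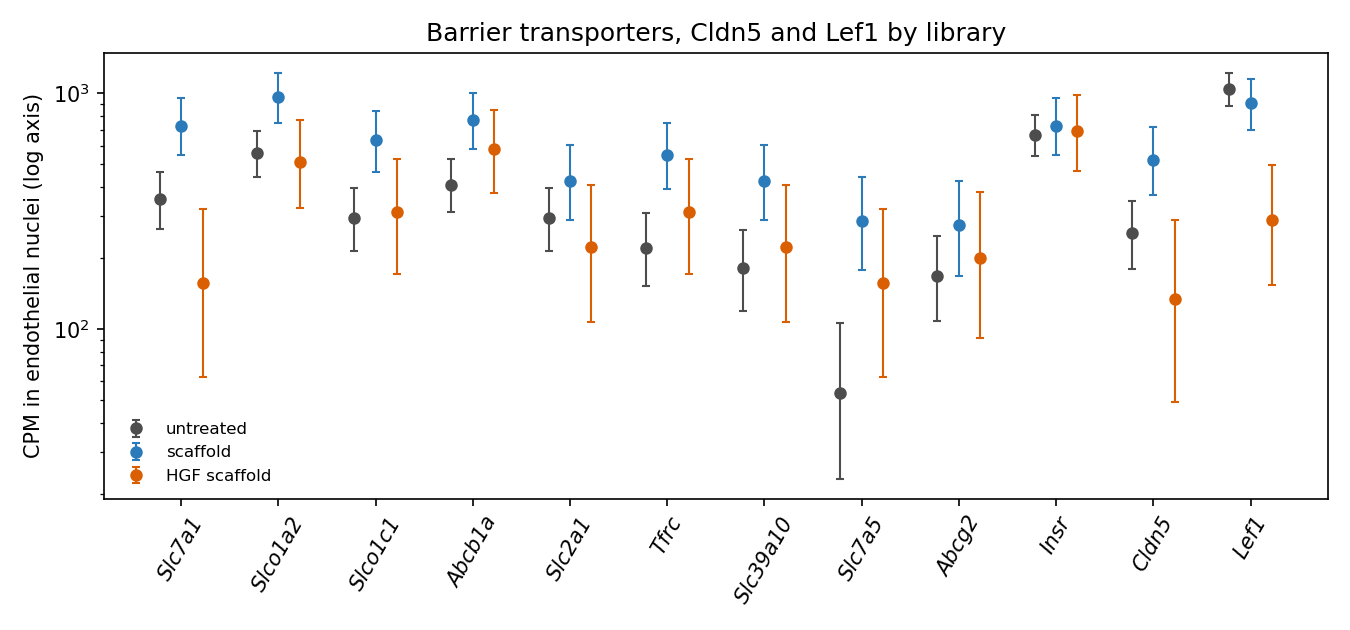
CPM (log axis) in endothelial nuclei of 10 barrier transporters and receptors, Cldn5 and Lef1 in the 3 libraries, with exact Poisson intervals that cover counting error. The scaffold library has the highest point for each of the 10 transporters and receptors drawn (Abcc4, not drawn, is highest in the untreated library), and the intervals of the 3 libraries all overlap for Insr, Abcg2 and Slc2a1.

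The size of the difference between HGF scaffold and scaffold depended on few nuclei, and it was larger without the richest ones. Leaving out, for each gene, the nucleus with the most UMIs in each library moved the transporter median of HGF scaffold over scaffold from -0.89 to -2.00, and that of scaffold over untreated from 0.79 to 0.74. Over all alternatives the medians ran from 0.62 to 1.20 for scaffold over untreated and from -2.00 to -0.60 for HGF scaffold over scaffold, with no change of direction.

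The transporters were concentrated in a minority of the nuclei. Nuclei with at least 1% of their UMIs from the list numbered 16 of 88, 12 of 48 and 3 of 31, and 6 nuclei lay between 0.9% and 1.1%. The 1% line was drawn after the values were seen, cuts a range rather than a type, and bears on the shallow HGF scaffold set through 3 nuclei. The following genes were also picked after their values were seen. Lef1 was at 3417 CPM in the transporter-rich nuclei and 428 CPM in the remaining endothelial nuclei, and Cldn5 at 1147 and 159 CPM. Lef1 was higher in the transporter-rich nuclei of each library, at 4859 against 525 CPM, 2288 against 411 CPM and 2208 against 144 CPM.

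Another set of genes ran the other way. Cdh13, the cadherin that binds adiponectin, was at 99.8 CPM in the transporter-rich nuclei and 4239 CPM in the rest. Tox, a nuclear HMG-box factor, had 0 UMIs in the transporter-rich nuclei and 212 UMIs, or 935 CPM, in the rest. Entpd1, an enzyme that breaks down extracellular ATP, was at 175 and 997 CPM. The arterial ligand Efnb2 was at 49.9 and 221 CPM, while Emcn was at 748 and 847 CPM. The endothelial genes outside the rule summed to 8778 and 9343 CPM and the myeloid markers to 1845 and 1531 CPM over the pooled libraries. By library the endothelial sums were 8701 and 9717 CPM untreated, 9100 and 7838 CPM scaffold, and 7255.5 and 10100 CPM HGF scaffold. For this sum and for Emcn the transporter-rich nuclei were thus higher in the scaffold library alone.

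**Figure D4:**
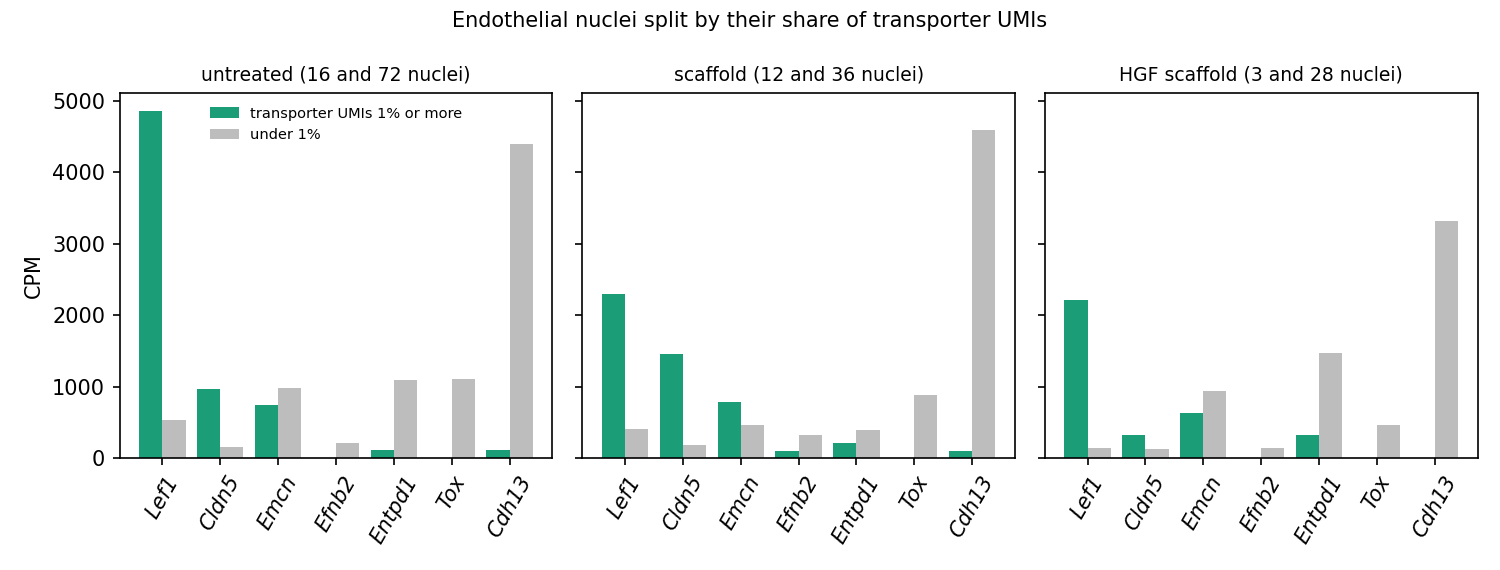
CPM of 7 genes in endothelial nuclei with at least 1% of their UMIs from barrier transporters (green) and in the others (grey), 1 panel per library, with bars from 0 and the number of nuclei above each panel. Lef1 is higher in the green bars and Cdh13 and Tox in the grey bars of all 3 panels; the HGF scaffold panel rests on 3 transporter-rich nuclei.

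Clustering of the 167 nuclei alone gave 7 sub-clusters at a resolution that was chosen after seeing the data. One, with 28 nuclei (13, 13 and 2 by library), held the capillary markers Slc7a5, Tfrc, Spock2 and Slco1a2 among its leading genes and is called capillary-like. Another, with 31 nuclei (17, 9 and 5), held Efnb2, Vegfc, Fbln5, Eln, Tm4sf1 and Unc5b and is called arterial-like. A set of 35 nuclei was led by Pthlh, Mpp7, P3h2, Ltbp1 and Ednrb, and one of 8 nuclei, with none from the scaffold library, by Pla2g4a, Pip5k1b, Pcdh7, Enpp2 and Il1r1. A set of 13 nuclei was shallow, at a median of 671 UMIs. These 3 sets were left unnamed.

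In the last pair of sub-clusters another lineage had the most markers among the 100 leading genes. By that count they are called led by other lineages below. One of 17 nuclei was led by Ccl3, G0s2 and Cxcl2 and held the myeloid markers Lyn, Ptprc and Spp1, with the 8 endothelial markers at 7226 CPM. One of 35 nuclei was led by Zbtb7c, Hs6st3, Aff3 and Arhgef37, and its 10 leading genes held no listed marker. The myelin genes Mbp and Mog came lower among its leading genes. Its endothelial markers stood at 8134 CPM, against 13215 to 23694 CPM in the other 5 sub-clusters. Together they held 25, 16 and 11 nuclei, and their part in each result was measured by leaving them out.

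Within the capillary-like nuclei the transporter list stood at 16953 CPM in the untreated library (15025 to 19060) and 17614 CPM in the scaffold library (15797 to 19584), from 13 nuclei each. In the other endothelial nuclei it stood at 2617 CPM (2349 to 2907) and 2603 CPM (2188 to 3074). The untreated and scaffold levels were thus close within both sets, while the capillary-like nuclei were 13 of 88 in one library and 13 of 48 in the other. In the HGF scaffold library 2 capillary-like nuclei held 96 of the 175 transporter UMIs, at 41078 CPM, and the other 29 nuclei stood at 1858 CPM (1471 to 2316). The sub-cluster was itself formed from these genes, so these values describe where the transporter UMIs lay.

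Of 21 junction genes in the files 13 could be read for scaffold over untreated, with 1 at least 2-fold higher and 2 at least 2-fold lower (7.33% and 8.95% of all genes) and a median log2 ratio of -0.09. The interval lay above 1 for 1 and below 1 for 3 of the 13. Cldn5 stood at 255, 522 and 134 CPM from 38, 38 and 6 UMIs. Its scaffold level was 2.05 times the untreated level (1.27 to 3.30), and 18 of the scaffold library's 38 UMIs lay in 1 nucleus. Without the richest nucleus of each library its log2 ratio was 0.31. Its HGF scaffold level was 0.26 of the scaffold level (0.0886 to 0.611). Esam stood at 228, 96.1 and 44.6 CPM and Cdh5 at 221, 110 and 156 CPM. The scaffolding protein Tjp1 stood at 295, 412 and 379 CPM, and its interval included 1 in both comparisons. Jam2, a junctional adhesion molecule, went from 335 to 179 to 401 CPM, 2.25-fold higher in HGF scaffold than in scaffold (1.04 to 4.99).

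Wnt barrier genes were led by Lef1, at 1039, 906 and 289.8 CPM, with a UMI in 32, 19 and 5 nuclei. The untreated and scaffold levels of Lef1 differed by less than counting error (ratio 0.87, 0.644 to 1.17). The HGF scaffold level was 0.32 of the scaffold level (0.162 to 0.585), while in the other nuclei that ratio was 1.0. Fzd6, a Wnt receptor, was at 402, 179 and 268 CPM. Nkd1, an inhibitor that Wnt signalling itself turns on, had 14, 19 and 0 UMIs, and its scaffold over untreated direction turned round when nuclei with markers of other lineages were left out. Of the 16 list genes in the files only 7 and 5 could be read in the respective comparisons.

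Barrier openings gave few UMIs. Plvap, the diaphragm protein of leaky fenestrated vessels, had 6, 2 and 3 UMIs, in 3.41%, 4.17% and 9.68% of the endothelial nuclei. Thinned to 500 UMIs per nucleus these shares were 0.57%, 3.46% and 2.85%, against about 0.51% of the other nuclei in each library, and the intervals of the unthinned shares overlapped. Cav1, the coat protein of caveolae, stood at 235, 179 and 134 CPM, and its intervals included 1.

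Eln, elastin, was lowest in the scaffold library. It had 118, 4 and 13 UMIs in 16, 4 and 7 nuclei, or 791, 54.9 and 289.8 CPM. Its scaffold over untreated ratio was 0.07 (0.0186 to 0.182) and its HGF scaffold over scaffold ratio 5.28 (1.63 to 22.2), against 0.57 and 0.81 in the other nuclei. In the untreated library 47 of the 118 Eln UMIs lay in 1 nucleus. Col8a1, a short-chain collagen of vessel walls, stood at 865, 68.7 and 535 CPM, with a scaffold over untreated ratio of 0.08 (0.0254 to 0.190), and 19 of its 24 HGF scaffold UMIs lay in 1 nucleus. Igfbp3, which binds insulin-like growth factors, had 39, 3 and 7 UMIs, with 21 of the untreated 39 in 1 nucleus. These genes were also lower in the other nuclei of the scaffold library, by ratios of 0.24 for Col8a1 and 0.69 for Igfbp3. Without nuclei that carried markers of 2 or more other lineages (mixed nuclei) the log2 ratios moved from -3.85 to -1.48 for Eln and from -3.65 to -0.31 for Col8a1. Mixed nuclei were 35 of 88 untreated, 30 of 48 scaffold and 13 of 31 HGF scaffold nuclei.

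The arterial list as a whole was not uniform. Of 7 members read for scaffold over untreated, 1 was at least 2-fold higher and 1 at least 2-fold lower (7.33% and 8.95% of all genes). Mgp, matrix Gla protein, was the higher one at 161, 343 and 334 CPM (ratio 2.13, 1.17 to 3.90). Efnb2 stood at 181, 261 and 134 CPM from 27, 19 and 6 UMIs, with 13 of the scaffold UMIs in 1 nucleus. The capillary list, which shares Slc7a5, Tfrc and Slco1a2 with the transporter list, had a median log2 ratio of 1.63 over 4 genes for scaffold over untreated and -0.89 over 3 genes for HGF scaffold over scaffold. Spock2, a proteoglycan of capillary endothelium and the gene the lists do not share, had 9, 17 and 1 UMIs and was 3.87-fold higher in scaffold than in untreated (1.63 to 9.85). Venous genes gave 3 readable members. Among them Il1r1, the interleukin-1 receptor, stood at 529.8, 247 and 424 CPM and was lower in scaffold than in untreated at 0.47 (0.263 to 0.786).

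The anticoagulant inhibitor Tfpi led the flow and vessel tone list, at 362, 68.7 and 245 CPM from 54, 5 and 11 UMIs. Its scaffold over untreated ratio was 0.19 (0.0592 to 0.470) and its HGF scaffold over scaffold ratio 3.57 (1.14 to 13.1), so the scaffold library was below both other libraries. Of 11 members read, 5 were at least 2-fold lower in scaffold than in untreated and 1 at least 2-fold higher (8.95% and 7.33% of all genes), with a median log2 ratio of -0.48. The interval lay below 1 for 2 of the 11 and above 1 for 1. Pde5a, which breaks down cyclic GMP, stood at 248, 110 and 178 CPM, but its direction turned round among nuclei with none of the excluded genes. Piezo1, a stretch-gated channel, stood at 121, 247 and 156 CPM (scaffold over untreated 2.05, 1.005 to 4.17), and Nos3, the endothelial nitric oxide synthase, at 268, 192 and 312 CPM. Klf2 and Edn1 gave at most 2 UMIs in any library.

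Of 16 genes of transforming growth factor and bone morphogenetic protein signalling, 10 were below 1 for scaffold over untreated, 4 were at least 2-fold lower and 1 was at least 2-fold higher (8.95% and 7.33% of all genes). Tgfbr3, a co-receptor, stood at 744, 316 and 334 CPM (0.42, 0.258 to 0.669), the signal carrier Smad1 at 496, 219.7 and 289.8 CPM (0.44, 0.241 to 0.767) and the ligand Bmp6 at 443, 109.9 and 223 CPM (0.25, 0.103 to 0.518). The direction of Tgfbr3 turned round among nuclei with none of the excluded genes. The log2 ratio of Bmp6 moved from -2.01 to -0.83 without mixed nuclei and to -0.46 without the sub-clusters led by other lineages. Zeb2 was the one gene higher, at 845, 2005 and 1917 CPM (2.37, 1.86 to 3.04), and it was 1.96-fold higher in the other nuclei too. For HGF scaffold over scaffold 0 of 9 were past 2-fold. Bmpr2, the receptor mutated in heritable pulmonary hypertension, stood at 610.2, 934 and 490.5 CPM, with a ratio of 0.53 (0.309 to 0.860).

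Among receptors for growth factors of vessels, Kdr, the main VEGF receptor, stood at 148, 302 and 357 CPM from 22, 22 and 16 UMIs, with a scaffold over untreated ratio of 2.05 (1.08 to 3.88), and its log2 ratio moved from 1.03 to 0.50 without mixed nuclei. Nrp1, a VEGF and semaphorin co-receptor, stood at 1079.6, 975 and 1159 CPM and the angiopoietin co-receptor Tie1 at 255, 165 and 178 CPM, and the intervals of their ratios included 1 in both comparisons. In the Notch pathway the nuclear partner Rbpj stood at 188, 439 and 289.8 CPM, 2.34-fold higher in scaffold (1.36 to 4.03) and 3.30-fold higher in the other nuclei. The tip cell and sprouting list summed to 192, 78 and 69 UMIs, or 1287.5, 1071 and 1538 CPM, against 723, 918 and 1053 CPM in the other nuclei. Thinned to 500 UMIs, 40.6%, 37.5% and 51.9% of endothelial nuclei held a UMI of the list, against 31.2%, 37.3% and 38.5% of the other nuclei. Its member Angpt2, the ligand that loosens vessel walls, gave 6, 2 and 2 UMIs. The VEGF gene Vegfa gave 2, 3 and 2 UMIs.

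The HGF receptor was rare in endothelial nuclei. Met gave 10, 9 and 4 UMIs in 6 of 88, 7 of 48 and 4 of 31 nuclei, or 67.1, 124 and 89.2 CPM, and both ratios had intervals that included 1. The share of nuclei with a Met UMI, thinned to 500 UMIs, was 2.96%, 5.12% and 4.74% in endothelial nuclei and 1.12%, 4.38% and 4.55% in the other nuclei. In both implant libraries the endothelial share was near that of the other nuclei, and in the untreated library it was above it. Whether the Met UMIs came from the endothelial nuclei themselves was not tested. Hgf itself gave 5, 3 and 3 UMIs. Of 19 HGF and MET signalling genes in the files, 9 were read for scaffold over untreated and 8 for HGF scaffold over scaffold, and 1 in each was at least 2-fold higher and 0 at least 2-fold lower, near the 7.33% and 6.58% of all genes that were higher. The higher gene for scaffold over untreated was Cd44, a co-receptor of MET, with 8, 14 and 16 UMIs (3.58, 1.40 to 9.86), and it was 3.33-fold higher in the other nuclei. For HGF scaffold over scaffold it was the adaptor Shc1, with 24, 8 and 12 UMIs and an interval that included 1. The adaptor Gab1, which binds MET, stood at 476, 357 and 535 CPM.

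Few basement membrane and integrin genes passed 2-fold. None of 12 basement membrane genes was at least 2-fold higher in scaffold than in untreated, Lama5 alone was at least 2-fold lower, and 0 of 8 passed 2-fold in either direction for HGF scaffold over scaffold. The shares over all genes were 7.33% higher and 8.95% lower in the first comparison and 6.58% and 9.7% in the second. In the second comparison 7 of the 8 were above 1, with a median log2 ratio of 0.30. Col4a1, the main collagen of that layer, stood at 1113, 865 and 1494 CPM, 1.73-fold higher in HGF scaffold than in scaffold (1.21 to 2.48). Lama4, the laminin chain of vessels, stood at 945.5, 1016 and 1092.5 CPM. Of 8 and 7 integrin genes read, 0 passed 2-fold in either comparison.

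Endothelial transcription factors were read for 8 members in each comparison. For scaffold over untreated the interval lay below 1 for 2 and above 1 for 0, and for HGF scaffold over scaffold below 1 for 2 and above 1 for 1. Tcf4, a basic helix-loop-helix factor, stood at 3809, 4024 and 3054 CPM, Fli1 at 1321, 1195 and 1003 CPM and Ets1 at 1026, 1332 and 1026 CPM. Elk3, an ETS repressor, was the 1 of 8 at least 2-fold lower in scaffold than in untreated (8.95% of all genes), at 637, 288 and 401 CPM (0.45, 0.268 to 0.732). Foxo1, a factor that holds vessels quiescent, stood at 603.5, 343 and 579.7 CPM (0.57, 0.350 to 0.894). Epas1, the hypoxia factor of endothelium, was the 1 of 8 at least 2-fold lower in HGF scaffold than in scaffold (9.7% of all genes), at 751, 865 and 357 CPM (0.41, 0.222 to 0.722). The ETS repressor Etv6 stood at 932, 1085 and 1672 CPM, 1.54-fold higher in HGF scaffold (1.11 to 2.14). The hypoxia factor Hif1a stood at 523, 371 and 691 CPM, 1.86-fold higher in HGF scaffold (1.08 to 3.25). It was the only 1 of 6 hypoxia and glycolysis genes read in that comparison that was above 1. The other 5 were below 1, and 3 were at least 2-fold lower (9.7% of all genes). The median log2 ratio of that list was -1.11, and the interval lay below 1 for 1 gene.

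The list of leukocyte adhesion and endothelial activation summed to 1656, 2802 and 2185 CPM, against 724, 1688 and 1482 CPM in the other nuclei. For scaffold over untreated 6 members could be read, with 3 at least 2-fold higher and 1 at least 2-fold lower (7.33% and 8.95% of all genes read). The median log2 ratio was 0.60, but it was -1.19 without mixed nuclei. The adhesion molecules themselves were sparse. Vcam1 gave 1, 0 and 0 UMIs, Icam1 2, 2 and 3, Sele 5, 5 and 2 and Selp 5, 8 and 6. Nfkbia, the inhibitor that NF-kappaB turns on, stood at 107, 632 and 379 CPM, 5.89-fold higher in scaffold than in untreated (3.27 to 11.1), in 13, 22 and 12 nuclei, and it was 7.34-fold higher in the other nuclei. Cxcl2, a neutrophil attractant, gave 0, 47 and 3 UMIs, and the 47 lay in 3 nuclei, 30 of them in 1. It led the sub-cluster with myeloid markers. Cxcl12, a chemokine of vessels, stood at 141, 329.6 and 112 CPM, and its scaffold over untreated ratio of 2.34 (1.25 to 4.42) became a log2 ratio of -0.03 among nuclei with none of the excluded genes.

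Of 20 antigen presentation genes in the files, 4 could be read for HGF scaffold over scaffold. All 4 were above 1 and 2 were at least 2-fold higher (6.58% of all genes). RT1-A1, a class I heavy chain, gave 21, 6 and 17 UMIs in 12, 5 and 13 nuclei, or 141, 82.4 and 379 CPM (4.60, 1.73 to 14.2), and it was 3.60-fold higher in the other nuclei. B2m, its light chain, stood at 335, 385 and 780.3 CPM (2.03, 1.20 to 3.46), against 1.73 in the other nuclei. Reads can be split between class I genes that are close copies, so the level of RT1-A1 is uncertain.

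Cell cycle transcripts were sparse, and nuclei were not sorted into cycling and resting ones. Mki67 gave 4, 0 and 1 UMIs, Pola1, a DNA polymerase subunit, 27, 4 and 2, and 2 of 28 cell cycle genes in the files could be read for scaffold over untreated and 0 for HGF scaffold over scaffold. The whole list summed to 738, 426 and 579.7 CPM in endothelial nuclei, against 491, 732 and 899 CPM in the other nuclei. Thinned to 500 UMIs, 19.9%, 17.7% and 19.6% of endothelial nuclei held a UMI of the list, against 18.8%, 25.2% and 23.6% of the other nuclei.

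Among genes with at least 50 UMIs, an interval that excluded 1 and a UMI in at least 10% of the nuclei of the higher library, the largest scaffold over untreated ratio was that of Spp1, osteopontin, with 7, 49 and 13 UMIs in 7, 32 and 10 nuclei (14.3, 6.46 to 37.5). It was 6.92-fold higher in the other nuclei. Psap, a lysosomal protein, was 3.0-fold higher (2.004 to 4.53), Apoe, a lipid carrier, 2.75-fold (2.11 to 3.59) and the kinase Dapk1 2.93-fold (1.62 to 5.38), and in the other nuclei they were 2.70-fold, 2.24-fold and 4.99-fold higher. Spp1 is a marker of the myeloid list, whose summed level moved from 791 to 2925 CPM between the same endothelial nuclei. Whether myeloid RNA entered these values was not tested. Without the sub-clusters led by other lineages the log2 ratios were 4.52 for Spp1 and 1.39 for Apoe.

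A second set was higher in endothelial nuclei of the scaffold library, with ratios below 1 in the other nuclei. Sorcs1, a sorting receptor, gave 45, 68 and 10 UMIs and was 3.09-fold higher in scaffold (2.09 to 4.62), against 0.61 in the other nuclei. Ddc, aromatic amino acid decarboxylase, was 3.03-fold higher (1.73 to 5.38), and 11 of its 34 scaffold UMIs lay in 1 nucleus. Its ratio in the other nuclei was 0.76, with an interval that included 1 (0.498 to 1.16). Prom1, prominin, was 3.02-fold higher (1.68 to 5.54) against 0.56. Ddc and Prom1 were both leading genes of the capillary-like sub-cluster. Ppp2r2b, a phosphatase subunit, was 3.40-fold higher, but 45 of its 63 scaffold UMIs lay in 1 nucleus, and its log2 ratio was 0.12 without the richest nuclei. Hbb, a globin of red cells, gave 18, 36 and 4 UMIs, 20 of the 36 in 1 nucleus, and its direction turned round without mixed nuclei.

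Under the same limits, with at least 50 UMIs per gene, the 10 genes lowest in scaffold against untreated began with Eln and Col8a1. After them came Tfpi, Adamts12, Slc4a4, Foxp2, Ltbp1, Bmp6, Slc35f1 and Rcan2, at ratios from 0.19 to 0.26. All 10 were also lower in the other nuclei of the scaffold library, at ratios from 0.24 to 0.62. Slc4a4 and Rcan2 were among the leading genes of the sub-cluster led by Zbtb7c, which also held myelin genes. Ltbp1, which holds latent transforming growth factor, had 63 of its 96 untreated UMIs in 1 nucleus. The directions of Ltbp1 and Slc35f1 turned round without mixed nuclei, and Tfpi kept log2 ratios between -3.10 and -2.06 over all alternatives.

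**Figure D5:**
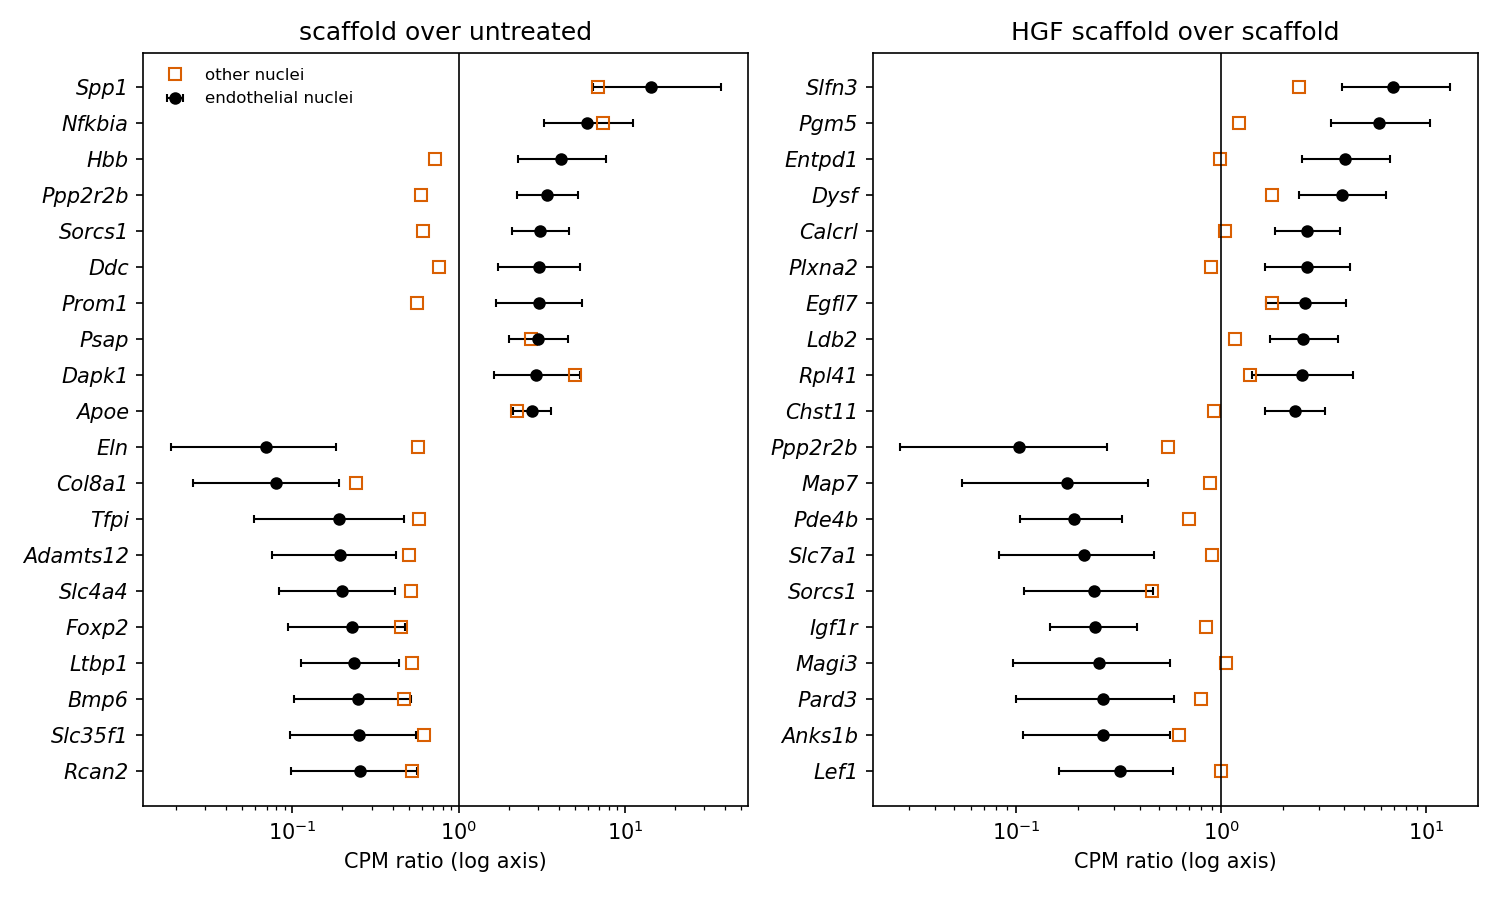
Ratio of CPM (log axis) for the 10 highest and 10 lowest genes of each comparison, in endothelial nuclei (points, with exact counting intervals) and in all other nuclei (squares). Genes were ranked among those with at least 50 UMIs, an interval that excluded 1 and a UMI in at least 10% of nuclei of the higher library. The squares follow the points for Spp1, Nfkbia, Psap, Dapk1 and Apoe at left, and sit between 0.56 and 0.76 for Hbb, Ppp2r2b, Sorcs1, Ddc and Prom1.

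Between HGF scaffold and scaffold the highest ratio was that of Slfn3, a Schlafen family gene, with 6, 15 and 64 UMIs in 4, 11 and 18 nuclei (6.93, 3.90 to 13.1), and it was 2.39-fold higher in the other nuclei. Dysf, a membrane repair protein, gave 98, 26 and 62 UMIs, or 657, 357 and 1382 CPM (3.87, 2.41 to 6.38). Entpd1 stood at 979, 343 and 1382 CPM (4.03, 2.49 to 6.69), with 33 of the 62 HGF scaffold UMIs in 1 nucleus. Pgm5, an adhesion protein, stood at 771, 247 and 1449 CPM, with 47 of 65 HGF scaffold UMIs in 1 nucleus, and its log2 ratio moved from 2.55 to 0.96 without the richest nuclei. The receptor subunit Calcrl, through which adrenomedullin acts on vessels, stood at 999, 687 and 1806 CPM (2.63, 1.83 to 3.82), and Egfl7 at 644, 467 and 1204 CPM (2.58, 1.65 to 4.08). In the other nuclei Entpd1 and Calcrl were level, at ratios of 0.98 and 1.04, while Dysf and Egfl7 were at 1.77 and 1.78.

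Of these genes Pgm5, Entpd1 and Dysf were also lower in scaffold than in untreated, at 0.32 (0.183 to 0.529), 0.35 (0.2197 to 0.538) and 0.54 (0.338 to 0.844), so the scaffold library was the lowest of the 3. Both comparisons share the scaffold library, and a low value there raises one ratio as it lowers the other. The same holds in reverse for Slc7a1 and Sorcs1, which were highest in the scaffold library.

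Among genes within the same limits (at least 50 UMIs), the 10 lowest in HGF scaffold against scaffold were Ppp2r2b, Map7, Pde4b, Slc7a1, Sorcs1, Igf1r, Magi3, Pard3, Anks1b and Lef1. Igf1r, the receptor for insulin-like growth factor 1, gave 161, 140 and 21 UMIs, or 1079.6, 1923 and 468 CPM (0.24, 0.146 to 0.387), against 0.85 in the other nuclei. Magi3 and Pard3, scaffold proteins of cell junctions and polarity, stood at 516, 618 and 156 CPM and at 670.6, 590.5 and 156 CPM. Pde4b, which breaks down cyclic AMP, stood at 1140.0, 1744 and 334 CPM (0.19, 0.104 to 0.328), but 65 of its 127 scaffold UMIs lay in 1 nucleus. Igf1r kept log2 ratios between -2.70 and -1.86 over all alternatives and Lef1 between -3.12 and -0.83. These ratios rest on 31 nuclei of the HGF scaffold library.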

How the data were processed

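Per the labels' protocols, nuclei of the lesion epicenter were isolated with a kit for neuronal tissue, captured on 10x Genomics 3′ gel beads and read from both ends at 150 bp. The authors deposited UMI counts for each gene and nucleus, without normalization, and the submitters' processing notes name Cell Ranger 6.0.1. The genome build was not given in the sources used here. Each matrix lists 17328 genes by symbol, and 545 of 598 list and marker symbols were found, 9 of them through an older symbol.

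The endothelial rule was applied to all barcodes. The members, the 24 gene lists and the alternatives were chosen with earlier results of these data known, and lists were read without the genes of the rule. Counts were summed per library and scaled to CPM. Levels carry exact Poisson, shares exact Clopper-Pearson and ratios exact conditional Clopper-Pearson intervals at 95%. Without replicates no test was made. The text names the list members, the 10 genes with the largest and the 10 with the smallest ratio in each comparison (at least 50 UMIs, an interval that excludes 1, a UMI in at least 10% of nuclei of the higher library), the 20 leading genes, Met and Hgf. Names chosen after their values were seen are marked as such. Scrublet called 2 nuclei (0.03755%), none endothelial, so it did not work as a doublet caller, and nuclei with at least 2 markers each of 2 or more other lineages (78 of the 167) were left out as an alternative. Sub-clusters came from 1000 variable genes, 15 principal components and 10 neighbours, with Leiden clustering at resolution 0.8. Python 3.11.15, numpy 2.4.6, scipy 1.17.1, pandas 2.3.3, scanpy 1.11.5 and leidenalg 0.10.2 were used, and the scripts were tested on simulated data. Promoters came from RefSeq (GRCr8).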

Additional observations from a re-analysis of the deposited data

How the results depend on the processing

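In all, 14 alternatives were run, 11 planned and 3 added after seeing the data (without the deepest nucleus of each library, without the sub-clusters led by other lineages, and without the richest nucleus of each gene). List medians were held against a band from the median lower to the median upper limit of their members' intervals. Over the alternatives 434 of 447 list medians stayed within this band and 13 moved outside it. The band reflects single genes and is not the counting error of a median. Of the gene ratios 3759 of 3996 stayed within the counting interval of the reported value and 225 moved outside it. A further 12 changed direction among gene ratios whose reported interval excluded 1. Ratios whose reported interval included 1 have no called direction and are not counted among the 12, though some of them changed sign. The causes were not tested.

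Endothelial shares were 5.42% and 3.69% (untreated, scaffold) with at least 2 markers, 3.11% (untreated) with at least 4, 1.29%, 0.88% and 1.77% (untreated, scaffold, HGF scaffold) with no excluded gene, and 9.67% and 5.83% (untreated, scaffold) without mixed nuclei.

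The numbers of genes at least 2-fold higher and lower for scaffold over untreated (200 and 244 as reported) were 54 and 82 with no excluded gene, 38 and 87 after thinning, 35 and 65 with at least 50 UMIs and 1199 and 793 with at least 5 UMIs, where the number of genes read changes too. The higher genes were 55 without mixed nuclei and 130 without the sub-clusters led by other lineages, and the lower genes 375 without the richest nuclei. For HGF scaffold over scaffold (101 and 149 as reported) they were 157 and 226 with at least 2 markers, 53 and 47 with no excluded gene, 63 and 37 without mixed nuclei, 34 and 32 after thinning, 15 and 32 with at least 50 UMIs and 780 and 875 with at least 5 UMIs, and the lower genes were 95 without the sub-clusters led by other lineages.

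Among list medians (log2), leukocyte adhesion for HGF scaffold over scaffold was -0.97 with at least 2 markers and -1.29 with at least 4, and for scaffold over untreated -1.19 without mixed nuclei and -0.91 with at least 50 UMIs. The TGF-beta and BMP list for HGF scaffold over scaffold was -1.21 without mixed nuclei, and the barrier transporters -2.00 without the richest nuclei.

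The log2 ratios that changed direction were all for scaffold over untreated. With no excluded gene they were -0.029 for Cxcl12, -1.18 for Hk1, 0.14 for Ltbp1, 0.082 for Pde5a, -1.18 for Ppp2r2b and 0.27 for Tgfbr3. Without mixed nuclei they were -0.42 for Hbb, -0.31 for Hk1, 0.85 for Ltbp1, -0.18 for Nkd1 and 0.56 for Slc35f1, and after thinning -1.93 for Nkd1. Depth limits the HGF scaffold library most, where 3 UMIs make 66.9 CPM. No paired analysis was possible because each group has 1 library.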
